A study of Mus musculus with 6 samples.

Results

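The collagen genes of inflamed mouse colonic stroma are described here class by class. They were taken as every gene name made of Col, a type number, the letter a and a chain number, which gave 44 of 24346 genes in the deposited tables. Of these, 11 encode fibrillar collagens (types 1, 2, 3, 5, 11, 24 and 27), 8 basement membrane collagens (types 4, 15 and 18), 6 chains of type 6 collagen, 9 fibril-associated collagens with interrupted helices (FACIT; types 9, 12, 14, 16, 19, 20 and 22), and 10 other types. Stromal cells were sorted from the large intestine of 6 mice aged 12 weeks, all treated with 1% dextran sulfate sodium (DSS), which injures the colonic epithelium and causes colitis. The sort kept live cells with Podoplanin and without CD45, CD31 and EpCAM, the surface proteins of leukocytes, endothelium and epithelium. The floxed group held 3 mice (numbers 8, 9 and 43) of genotype Il10ra flox/flox. The Pdgfra-cre group held 3 mice (numbers 13, 23 and 25) with the same floxed alleles and Pdgfra cre, so that recombination is limited to cells that express, or descend from cells that expressed, the fibroblast gene Pdgfra. Mice of both groups carried the floxed alleles and received DSS, and no untreated mice were analysed here. The comparison asks what loss of the interleukin-10 receptor chain in such cells goes with, here for the genes of the collagen matrix.

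Collagens are secreted proteins built from chains that wind around each other as a helix, which needs a glycine at each turn and therefore a repeat of glycine and 2 further residues (Gly-X-Y). Fibrillar collagens have a long unbroken repeat and form the cables of the stroma, FACIT proteins sit on the surface of those cables, type 4 chains form the sheet of basement membranes, and type 6 chains form beaded filaments around cells. In the colon, fibroblasts, myofibroblasts and smooth muscle cells are the main makers of this matrix, and fibrillar collagen accumulates in fibrosis after chronic inflammation.

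The coding sequences show the difference between the classes that the grouping by type number did not use. The longest unbroken run of Gly-X-Y, read as a glycine codon (GGN) recurring in frame, was counted in the longest coding transcript of each gene (GENCODE M21). It held 344 repeats in Col3a1, 338 in Col1a1 and 339 in Col1a2, but 216 in Col24a1 and 217 in Col27a1, the minor fibrillar genes. It held 30 in Col18a1, 40 in Col4a1 and 87 in Col6a1. Among FACIT genes it held 32 in each of Col12a1 and Col14a1 and 113 in each of Col9a1, Col9a2, Col9a3 and Col22a1. Runs of at least 5 repeats covered 73.2% of the codons of Col3a1, 79.6% of those of Col4a1 in 22 pieces, 30.4% of those of Col18a1 in 16 pieces, and 8.22% of those of Col12a1. A stretch of 60 coding bases is shown for Col3a1 (codons 164 to 183, the start of its long run) and for Col18a1 (codons 1031 to 1050, where its longest run ends). Capitals mark the glycine codon that opens each Gly-X-Y repeat of the run, and glycine codons at other places stay in lower case. The stretches show how a run starts in the fibrillar chain and how one ends in the basement membrane chain. Since the places were chosen for this, the 2 stretches do not compare the classes. The Col3a1 run itself ends at codon 1195, and the Col18a1 run starts at codon 953.
Col3a1: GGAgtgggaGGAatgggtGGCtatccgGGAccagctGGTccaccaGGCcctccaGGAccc
Col18a1: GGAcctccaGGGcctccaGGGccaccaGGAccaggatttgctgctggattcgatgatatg

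Sequence before the start of transcription is shown for the most abundant collagen (Col3a1), for the collagen with the lowest unadjusted p (Col18a1), and for a pair of neighbours that start back to back on the X chromosome (Col4a5 and Col4a6). It is also shown for the type 6 chains Col6a2 and Col6a3, whose ratio did not overlap between the groups and was not tested. The windows end where GENCODE places the first exon. RefSeq (GRCm38.p6) gave such a window for 35 of the 44 genes, and none for Col1a1, Col2a1, Col4a3, Col5a2, Col9a3, Col12a1, Col14a1, Col22a1 and Col26a1. Capitals mark the TATA box letters TATAAA, the CCAAT box, and the GC box letters GGGCGG, each on either strand.
Col3a1 (chr1:45311288-45311537, plus strand): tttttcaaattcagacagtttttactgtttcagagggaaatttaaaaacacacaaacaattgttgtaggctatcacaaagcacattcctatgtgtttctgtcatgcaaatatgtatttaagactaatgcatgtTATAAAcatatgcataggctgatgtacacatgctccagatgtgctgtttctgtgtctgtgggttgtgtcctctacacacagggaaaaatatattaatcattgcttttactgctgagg
Col18a1 (chr10:77166549-77166780, minus strand): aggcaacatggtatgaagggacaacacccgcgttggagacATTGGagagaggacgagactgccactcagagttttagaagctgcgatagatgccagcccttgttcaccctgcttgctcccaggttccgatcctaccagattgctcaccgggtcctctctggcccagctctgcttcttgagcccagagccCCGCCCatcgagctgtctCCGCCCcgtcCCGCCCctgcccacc
Col4a5 (chrX:141475169-141475384, plus strand): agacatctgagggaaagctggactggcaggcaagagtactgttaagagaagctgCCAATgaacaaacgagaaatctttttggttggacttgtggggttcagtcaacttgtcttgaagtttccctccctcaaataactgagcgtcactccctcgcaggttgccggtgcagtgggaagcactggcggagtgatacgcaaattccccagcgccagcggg
Col4a6 (chrX:141474077-141474326, minus strand): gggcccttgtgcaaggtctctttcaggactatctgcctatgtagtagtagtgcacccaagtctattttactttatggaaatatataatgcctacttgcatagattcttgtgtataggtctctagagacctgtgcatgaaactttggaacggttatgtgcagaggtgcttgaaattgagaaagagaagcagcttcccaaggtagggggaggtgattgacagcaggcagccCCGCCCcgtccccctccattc
Col6a2 (chr10:76623631-76623880, minus strand): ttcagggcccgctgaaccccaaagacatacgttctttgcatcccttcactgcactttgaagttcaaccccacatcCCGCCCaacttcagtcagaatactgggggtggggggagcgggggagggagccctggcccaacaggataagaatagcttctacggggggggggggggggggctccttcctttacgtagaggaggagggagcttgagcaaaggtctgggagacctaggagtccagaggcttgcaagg
Col6a3 (chr1:90843972-90844221, minus strand): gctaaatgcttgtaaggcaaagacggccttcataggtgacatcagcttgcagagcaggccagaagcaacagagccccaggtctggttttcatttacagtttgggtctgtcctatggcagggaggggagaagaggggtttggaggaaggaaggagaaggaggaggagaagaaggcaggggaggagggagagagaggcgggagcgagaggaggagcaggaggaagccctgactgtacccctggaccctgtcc
Within 250 bases before the start, GGGCGG was found in 22 of 38 collagen windows and in 32.7% of all 32817 windows, CCAAT in 13 of 38 and in 33.8%, and TATAAA in 5 of 38 and in 12.4%. The Col4a5 and Col4a6 starts lay 1343 bases apart, and those of Col4a1 and Col4a2 only 21 bases apart on opposite strands of chromosome 8, so that their first exons overlap in the annotation. Col18a1 has a further start within the gene (at 77113705 on chromosome 10), and the gene-level values used here sum its isoforms.

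The values are FPKM (sequenced fragments scaled by transcript length and library size), and 11188 to 11358 genes reached 1 FPKM in each library. No source used here gives the number of reads. Low values put 1 read of a 1 kilobase transcript at very roughly 0.116 to 0.133 FPKM, from a coarse estimate that would miss a large difference in depth. The targeted gene Il10ra was at 0.418 FPKM in floxed library 43 and listed at 0 in the other 5 libraries, so its loss could not be seen. The fibroblast markers Dcn (8841 FPKM in floxed and 10244 in Pdgfra-cre, as means) and Pdgfra (188 and 150) were high. Dcn was higher and Pdgfra lower in Pdgfra-cre, each without overlap. The sort markers Ptprc, Pecam1 and Epcam stayed at or below 1.11 FPKM in every library. Pdgfra-cre library 23 stood apart: summed neutrophil markers were 257 FPKM there and 71.2 to 108 in the other 5, and summed smooth muscle markers were 195, against 448 to 846. That library held the lowest value of 13 of the 26 tested collagen genes (50%, against 24.01% of all tested genes). Differences that it moves by over 1.5 times are also given without it for the members described below.

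No collagen gene passed the test between the groups, and the members that differed most were lower in Pdgfra-cre. Of the 44 genes, 26 reached 1 FPKM in 3 or more of the 6 libraries and entered the test (limma on log2(FPKM + 1), 11429 genes). With adjustment over all of these, 0 collagen genes passed, as did 0% of all genes tested. An unadjusted p under 0.05 was reached by 5 collagen genes, of which 4 were lower (Col18a1, Col12a1, Col4a6 and Col6a4) and 1 higher (Col14a1). These were 19.2% of the tested members, against 11% of all genes (5.47% higher and 5.49% lower). The groups did not overlap in 6 members, the same genes and Col27a1, or 23.1% against 16.4% of all genes (8.07% higher and 8.29% lower). The median log2 difference was -0.10 over the tested members (-0.04 without library 23) and 0.00 over all genes. Since these are bulk libraries, fewer cells that express a gene and less of its RNA per cell cannot be told apart. All log2 differences are Pdgfra-cre minus floxed on the log2(FPKM + 1) scale, which understates those of genes with low FPKM, and errors on them are SE from limma.

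**Figure D1:**
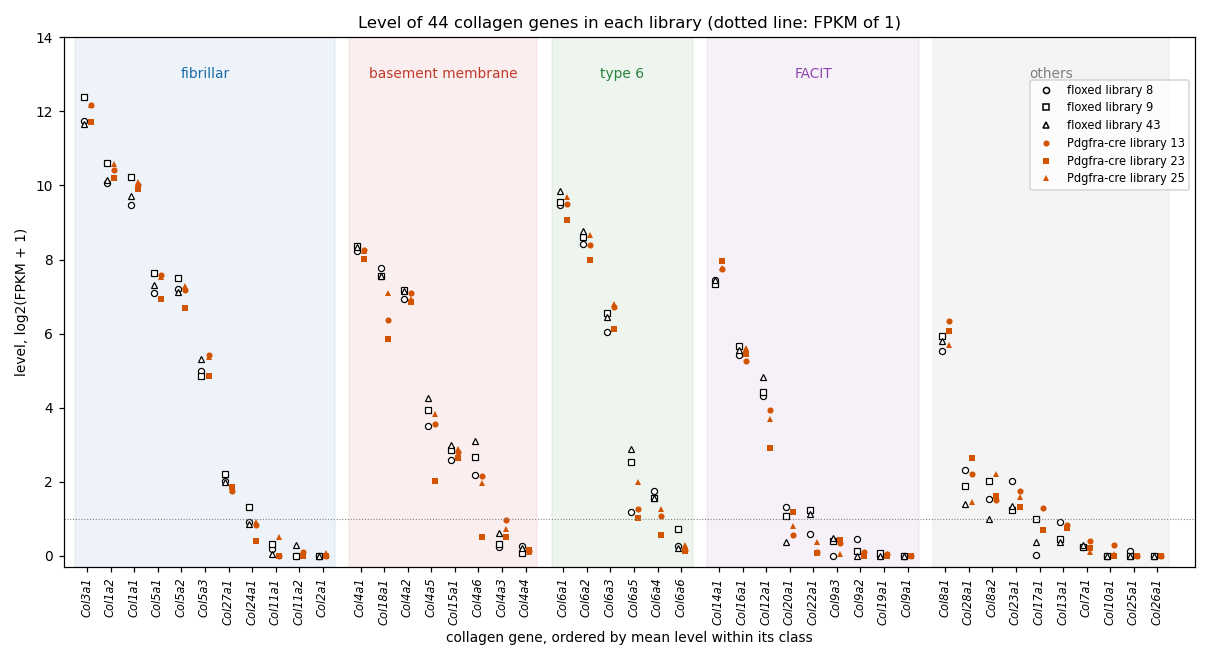
Level of each collagen gene in each library as log2(FPKM + 1), ordered by mean level within its class; open black symbols are the 3 floxed libraries, filled orange symbols the 3 Pdgfra-cre libraries, and the dotted line marks an FPKM of 1. Col3a1 is the highest, and 15 genes stay below the dotted line in all 6 libraries.

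**Figure D2:**
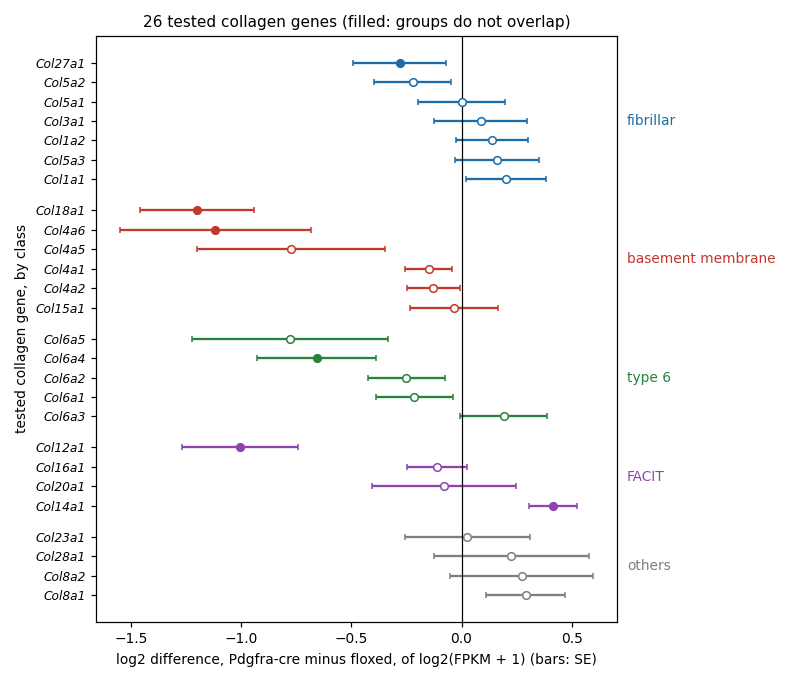
Log2 difference (Pdgfra-cre minus floxed) of the 26 tested collagen genes with its SE as bars, by class; filled points are the 6 genes whose groups do not overlap. All 6 basement membrane genes lie left of 0 and all 4 genes of the other types right of it, with the bars of 4 of the 7 fibrillar genes crossing 0.

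Fibrillar collagens made up most of the collagen message in every library. They held 72.8%, 79.3% and 69.2% of the summed collagen FPKM in floxed libraries 8, 9 and 43, and 78.2%, 77.6% and 77.0% in Pdgfra-cre libraries 13, 23 and 25. The Pdgfra-cre shares lay within the range of the floxed ones. Type 6 chains held 11.5% to 18.3% in floxed and 11.5% to 13.7% in Pdgfra-cre, and FACIT collagens 2.17% to 3.13% and 2.81% to 4.02%. The basement membrane share was 8.66%, 6.37% and 8.62% in floxed and 5.74%, 5.90% and 5.85% in Pdgfra-cre, without overlap. Without Col18a1 the basement membrane genes held 4.62% to 6.25% and 4.48% to 5.14%, which overlapped. Only 4 genes, Col3a1, Col1a2, Col1a1 and Col6a1, held 76.6% to 82.4% of all collagen FPKM. These shares are a description without a test.

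**Figure D3:**
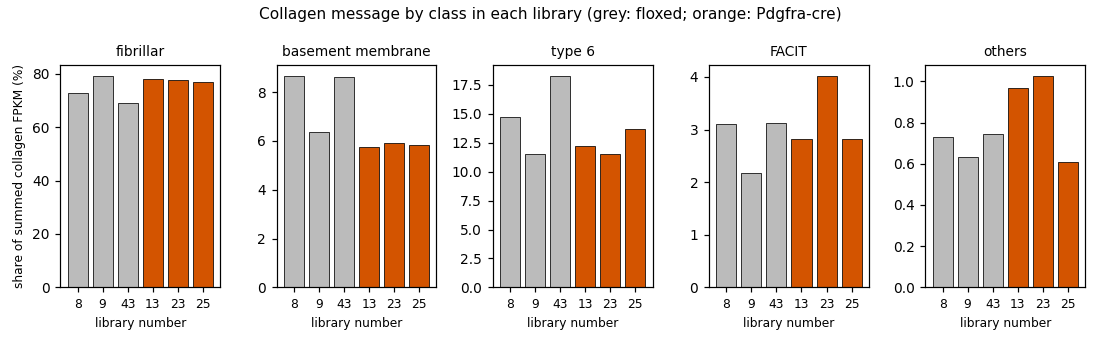
Share of the summed FPKM of all 44 collagen genes held by each class (vertical axes in percent, each with its own scale) in floxed libraries (grey) and Pdgfra-cre libraries (orange), labelled by mouse number. The basement membrane share is 6.37% to 8.66% in floxed and 5.74% to 5.90% in Pdgfra-cre, while the fibrillar share overlaps.

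The fibrillar class carried the most abundant collagen genes and showed no clear direction. Of its 7 tested members, 5 had a log2 difference above 0 and 2 below, none had an unadjusted p under 0.05, and the median was 0.09. That median was -0.05 after rescaling to TPM and -0.04 after quantile normalization, when the median of all genes was -0.09 and -0.008. The filter was applied after rescaling to TPM, so the genes counted can differ there. Without Pdgfra-cre library 23 the fibrillar median was 0.23, the highest of the 5 class medians in size under that setting. Col3a1 encodes the chain of type 3 collagen, which is rich in soft and healing tissue (chr1:45311538-45349706). It was at 3443, 5391 and 3224 FPKM in floxed libraries 8, 9 and 43 and at 4623, 3373 and 4601 in Pdgfra-cre libraries 13, 23 and 25. The groups overlapped, with the highest value in floxed library 9, and the log2 difference was 0.09 ± 0.21 (limma adjusted p = 0.923), or 0.24 without library 23 and 0.32 without floxed library 9. By mean FPKM it had rank 5 among all genes.

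The chains of type 1 collagen, the main cable-forming collagen, spread widely among the floxed mice. Col1a1 was at 704, 1201 and 836 FPKM in floxed and at 1032, 960.3 and 1086 in Pdgfra-cre. Col1a2 was at 1061, 1543 and 1122 in floxed and at 1354.5, 1186 and 1528 in Pdgfra-cre. Each had its highest value in floxed library 9 and its lowest in floxed library 8, so that the floxed range enclosed all Pdgfra-cre values. Their log2 differences were 0.20 ± 0.18 and 0.14 ± 0.16 (limma adjusted p = 0.761 and 0.832), or 0.42 and 0.31 without floxed library 9 and 0.03 and 0.04 without floxed library 8. Without Pdgfra-cre library 23 that of Col1a2 was 0.23. Col3a1 exceeded Col1a2, and Col1a2 exceeded Col1a1, in 6 of 6 libraries.

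Type 5 chains, which join type 1 fibrils and limit their width, were expressed at a lower level. Col5a1 was at 164 ± 31.1 FPKM in floxed and 165 ± 38.9 in Pdgfra-cre, Col5a2 at 155 ± 22.2 and 134 ± 28.6, and Col5a3 at 32.6 ± 5.56 and 36.8 ± 7.89 (SD, n = 3 each). Their log2 differences were 0.00, -0.22 and 0.16, or 0.21, -0.04 and 0.35 without Pdgfra-cre library 23. Col5a1 and Col5a2 did not keep a fixed order, with Col5a1 higher in 5 of 6 libraries. Col27a1, a minor fibrillar gene (chr4:63214004-63334991), was at 3.07, 3.61 and 2.99 FPKM in floxed and at 2.35, 2.63 and 2.43 in Pdgfra-cre. All Pdgfra-cre values lay below all floxed ones, but the difference was small and did not pass (log2 difference -0.28 ± 0.21; limma adjusted p = 0.706).

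Basement membrane collagens were lower in Pdgfra-cre as far as the means of their 6 tested members go, with a wide range of size. All 6 had a log2 difference below 0, against 49.7% of all genes tested, and the median was -0.46. Without Pdgfra-cre library 23 the difference of Col15a1 was 0.03 and the other 5 stayed below 0. The median was -0.15 without that library and -0.15 with a filter of 5 FPKM. It was -0.14 without the filter, which adds Col4a3 and Col4a4. After rescaling to TPM it was -0.25, when the median of all genes was -0.09. The filter was applied after that rescaling, so the genes counted can differ there too. The size of the class median thus rests on library 23 and on the genes counted. Unadjusted p was under 0.05 for 2 of 6 members (Col18a1 and Col4a6), both lower, against 5.49% of all genes that were lower at that p. Summed smooth muscle markers did not overlap between the groups (816 to 846 FPKM in floxed and 195 to 492 in Pdgfra-cre, with 10 of 10 markers lower without overlap, against 8.29% of all genes). Their part in the collagen values was not tested.

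Col18a1 had the lowest unadjusted p of all collagen genes. It encodes type 18 collagen, a heparan sulfate proteoglycan of basement membranes whose released end is the angiogenesis inhibitor endostatin (chr10:77052178-77166548). It was at 218, 189 and 189 FPKM in floxed libraries 8, 9 and 43 and at 81.7, 56.8 and 135 in Pdgfra-cre libraries 13, 23 and 25. The floxed values lay close together and the Pdgfra-cre values were all lower and more spread, lowest in library 23 and highest in library 25. The means were 198 ± 16.7 and 91.2 ± 40.1 FPKM (SD, n = 3 each), with a log2 difference of -1.20 ± 0.26 (limma adjusted p = 0.169). Without Pdgfra-cre library 25 the difference was -1.52 ± 0.17 and passed (limma adjusted p = 0.0287), when 0.289% of all genes passed. Leaving out floxed library 43 or Pdgfra-cre library 13 let 0.0175% and 0.0262% of all genes pass, without a collagen gene among them. Without library 23 the Col18a1 difference was -0.91 (limma adjusted p = 0.19). Its sister gene Col15a1, also a proteoglycan with an endostatin-like end, was at 6.09 ± 1.01 and 5.89 ± 0.555 FPKM and showed little difference (log2 difference -0.03 ± 0.20; limma adjusted p = 0.976).

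The major type 4 chains, found in nearly all basement membranes, differed little. Col4a1 was at 299.8, 329 and 324 FPKM in floxed and at 302, 259 and 298 in Pdgfra-cre, with a log2 difference of -0.15 ± 0.11 (limma adjusted p = 0.686), or -0.08 without library 23. Col4a2 was at 121, 143 and 141 in floxed and at 137, 114 and 120.3 in Pdgfra-cre, with a log2 difference of -0.13 ± 0.12 (limma adjusted p = 0.782), or -0.07 without library 23. The groups of each overlapped, and library 23 was the lowest for each. Reads from the overlapping first exons of this pair could count for either gene, since the library kit does not keep the strand.

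The X-linked type 4 chains, which together form a network known from smooth muscle and some epithelial basement membranes, were lower mainly in library 23. Col4a6 (chrX:141165403-141474076) was at 3.56, 5.38 and 7.58 FPKM in floxed libraries 8, 9 and 43 and at 3.45, 0.417 and 2.88 in Pdgfra-cre libraries 13, 23 and 25. Library 13 lay just below the lowest floxed library, so that the groups did not overlap by a narrow margin, and library 23 had very roughly 24 reads of this gene. The log2 difference was -1.12 ± 0.43 (limma adjusted p = 0.372), and -0.60 without library 23. Col4a5 was at 10.45, 14.3 and 18.03 FPKM in floxed and at 10.7, 3.03 and 13.2 in Pdgfra-cre. Only library 23 lay outside the floxed range, and the log2 difference was -0.77 ± 0.42 (limma adjusted p = 0.566), or -0.21 without that library. The order of the libraries was the same for both genes in the floxed group (43 highest, 8 lowest), and library 23 was the lowest of all 6 for both. Col4a3 and Col4a4, chains of the kidney glomerular membrane, did not reach 1 FPKM in any library.

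**Figure D4:**
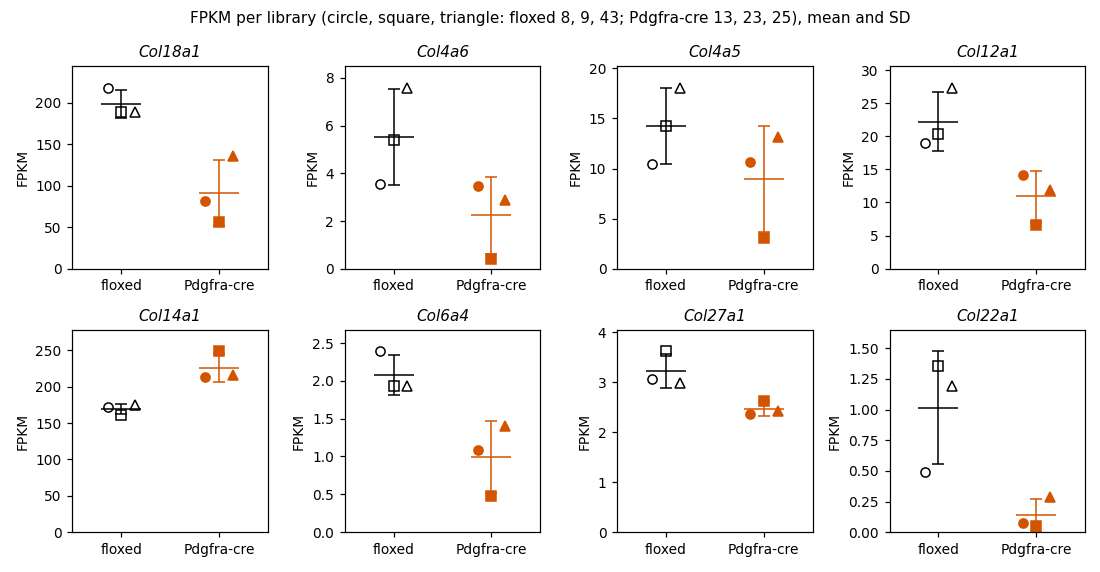
FPKM of 8 collagen genes in each library (circles, squares and triangles are floxed 8, 9 and 43 or Pdgfra-cre 13, 23 and 25), with the mean as a horizontal line and the SD as bars. Col18a1 lies at 189 to 218 FPKM in floxed and 56.8 to 135 in Pdgfra-cre, Col14a1 is the gene with higher Pdgfra-cre values, and Pdgfra-cre 23 is lowest for Col18a1, Col4a6, Col4a5, Col12a1, Col6a4 and Col22a1.

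The 3 main chains of type 6 collagen, which assemble together into the filaments that link cells to the fibrils, were abundant and overlapped between the groups. Col6a1 was at 709.5, 750.5 and 925 FPKM in floxed and at 716, 531 and 829 in Pdgfra-cre (log2 difference -0.21 ± 0.17; limma adjusted p = 0.731), and the difference was -0.04 without library 23. Col6a2 was at 390 ± 49.0 and 332 ± 76.2 FPKM (SD, n = 3 each) and had a log2 difference of -0.25 ± 0.17, or -0.07 without library 23. Col6a3 was at 65.5, 93.4 and 86.9 FPKM in floxed and at 105, 69.1 and 109.8 in Pdgfra-cre, the only tested type 6 chain with a difference above 0 (0.19 ± 0.20; limma adjusted p = 0.805), or 0.40 without library 23. Of the 5 tested members of the class, 1 was above 0 and 4 below, with a median of -0.25 that was -0.07 without library 23.

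The alternative type 6 chains, which resemble the third chain and lie side by side on chromosome 9, were scarce. Col6a4 (chr9:105989454-106096783) was at 2.39, 1.93 and 1.93 FPKM in floxed and at 1.09, 0.472 and 1.41 in Pdgfra-cre. No Pdgfra-cre value reached the floxed ones, and the log2 difference was -0.66 ± 0.27 (limma adjusted p = 0.4). Antisense transcripts annotated over Col6a4 could add reads to it. Col6a5 was at 1.28, 4.83 and 6.42 FPKM in floxed and at 1.39, 1.04 and 3.01 in Pdgfra-cre, and floxed library 8 lay among the Pdgfra-cre values (log2 difference -0.78 ± 0.44; limma adjusted p = 0.585). Col6a6 stayed at or below 0.652 FPKM.

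FACIT collagens held the members that differed in opposite directions. Col12a1 and Col14a1 encode closely related proteins that coat type 1 fibrils, and Col14a1 is a usual marker of fibroblasts. Col12a1 (chr9:79598991-79718831) was at 18.9, 20.4 and 27.3 FPKM in floxed libraries 8, 9 and 43 and at 14.2, 6.59 and 11.9 in Pdgfra-cre libraries 13, 23 and 25. All Pdgfra-cre values were lower, the lowest in library 23, and the log2 difference was -1.005 ± 0.26 (limma adjusted p = 0.21), or -0.71 without that library. Col14a1 (chr15:55307750-55520803) was at 172, 161 and 174 FPKM in floxed and at 213, 248 and 216 in Pdgfra-cre. All Pdgfra-cre values were higher, the highest in library 23, and the log2 difference was 0.41 ± 0.11 (limma adjusted p = 0.21), or 0.34 without that library. Each kept its sign under every alternative setting tried, and neither passed in any. The median of the 4 tested FACIT members was -0.10, with 1 above 0 and 3 below, and was 0.02 without Pdgfra-cre library 13 and -0.18 without library 23.

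The other FACIT genes were level or scarce. Col16a1 was at 42.2, 49.4 and 46.3 FPKM in floxed and at 37.4, 42.5 and 47.9 in Pdgfra-cre, overlapping (log2 difference -0.11 ± 0.14; limma adjusted p = 0.842). Col20a1 lay between 0.292 and 1.497 FPKM (log2 difference -0.08 ± 0.33; limma adjusted p = 0.96), with a difference of -0.25 without library 23. Col22a1, a collagen known from tissue junctions such as those of muscle and tendon, was not tested because only 2 libraries reached 1 FPKM, and it is named here after its values were seen. It was at 0.495, 1.36 and 1.20 FPKM in floxed and at 0.0711, 0.0524 and 0.289 in Pdgfra-cre, without overlap, very roughly 38 to 91 reads against 4 to 22. When all genes above 0 were tested its log2 difference was -0.80 (limma adjusted p = 0.413). An antisense gene is annotated over it.

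Of the other types, Col8a1 alone was well expressed. It encodes a short network-forming chain known from vessel walls and injured tissue. Its values were 45.3, 59.8 and 54.3 FPKM in floxed and 80.6, 66.1 and 51.0 in Pdgfra-cre. Libraries 13 and 23 lay above and library 25 within the floxed range (log2 difference 0.29 ± 0.18; limma adjusted p = 0.62). The difference was 0.14 without Pdgfra-cre library 13, 0.46 without library 25 and 0.18 without floxed library 8. Col8a2, Col23a1 and Col28a1 lay between 0.998 and 5.22 FPKM and overlapped, with log2 differences of 0.27, 0.03 and 0.23. All 4 tested members were above 0 with all 6 libraries (without library 23 Col28a1 was at -0.04 and Col23a1 at 0.14), none had an unadjusted p under 0.05, and the median was 0.25, or 0.00 without floxed library 43.

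In all, 18 collagen genes were too scarce for the test, and 15 of these never reached 1 FPKM. Col9a1 and Col26a1 were listed at 0 in all 6 libraries. A single library gave the cartilage chain Col2a1 a value (0.0640 FPKM in Pdgfra-cre library 25, very roughly 3 reads), as for Col25a1 (0.0878 in floxed library 8). Col10a1, known from growth cartilage, had values in Pdgfra-cre libraries 13 and 25 (0.216 and 0.0345). Col11a1, Col11a2, Col9a2, Col9a3 and Col19a1 stayed at or below 0.428 FPKM. Col7a1, which anchors epithelial basement membranes, stayed at or below 0.328, and the transmembrane collagen Col13a1 at or below 0.884. The hemidesmosome gene Col17a1 ranged from 0.0200 to 1.47 FPKM and was highest in library 13, and Col24a1 ranged from 0.328 to 1.501 and was highest in floxed library 9.

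Ratios between chains compare genes within a library, so that scaling between libraries does not enter. The ratio of Col1a1 to Col1a2 lay between 0.664 and 0.810 in the 6 libraries, that of Col4a1 to Col4a2 between 2.21 and 2.48, and that of Col6a1 to Col6a2 between 1.91 and 2.14. In these 3 pairs, each of which assembles into the same molecule, the groups overlapped and the chains kept nearly the same proportion even where their levels differed between mice. The ratio of Col5a1 to Col5a2, partners in type 5 collagen, was 0.937, 1.10 and 1.13 in floxed and 1.33, 1.19 and 1.18 in Pdgfra-cre, higher without overlap. The ratio of Col6a1 to Col6a3 was 10.8, 8.04 and 10.6 in floxed and 6.84, 7.68 and 7.55 in Pdgfra-cre, lower without overlap. That of Col6a2 to Col6a3 was 5.19, 4.20 and 5.04 in floxed and 3.20, 3.68 and 3.70 in Pdgfra-cre, also lower without overlap. The ratio of Col14a1 to Col12a1 was 9.11, 7.90 and 6.39 in floxed and 15.02, 37.7 and 18.2 in Pdgfra-cre, and that of Col18a1 to Col15a1 was 43.4, 30.3 and 26.8 against 13.58, 10.8 and 21.2. The ratio of Col4a5 to Col4a6 was 2.38 to 2.94 in floxed and 3.101, 7.25 and 4.57 in Pdgfra-cre. These pairs were chosen with the levels known, so their ratios are a description without a test.

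**Figure D5:**
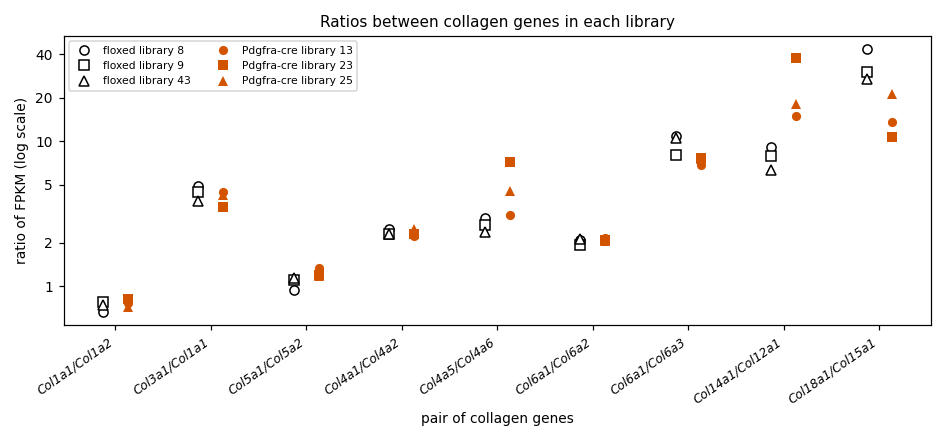
Ratio of FPKM between pairs of collagen genes in each library on a log scale; open black symbols are floxed libraries and filled orange symbols Pdgfra-cre libraries. Col1a1/Col1a2, Col4a1/Col4a2 and Col6a1/Col6a2 stay within narrow bands, while Col14a1/Col12a1 is 6.39 to 9.11 in floxed and 15.02 to 37.7 in Pdgfra-cre.

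Genes that modify, export, process, crosslink, bind and break down collagen showed no common direction. Of 79 such genes in the tables, 68 were tested, 33 were above 0 and 35 below, and the median log2 difference was -0.01 (0.03 without library 23). An unadjusted p under 0.05 was reached by 4 with higher and 3 with lower values, or 10.3% against 11% of all genes, and 0 passed over all genes. The prolyl hydroxylase subunit P4hb (623 FPKM in floxed and 663 in Pdgfra-cre, as means), the collagen crosslinker Lox (73.5 and 72.5) and the secreted collagen-binding protein Sparc (2392 and 2353) each overlapped between the groups, as did Pcolce (727 and 828), which aids the trimming of procollagen. None of the 15 tested genes for hydroxylases, collagen glycosyltransferases and their partners had an unadjusted p under 0.05. All 10 tested collagen receptor genes were below 0, against 49.7% of all genes. They ran from -0.01 to -0.50 for the collagen-binding integrin chain Itga1 (median -0.10), and none had an unadjusted p under 0.05. Itgb1 and Antxr1, 2 of the 10, were lower without overlap, against 8.29% of all genes. Itgb1, the shared chain of the collagen-binding integrins, was at 342, 339.9 and 361 FPKM in floxed and 324, 281 and 312 in Pdgfra-cre.

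In the same list, Bmp1, the proteinase that trims the ends of fibrillar procollagens, had the lowest p. It was at 89.2, 93.5 and 69.1 FPKM in floxed and at 121, 119 and 119.6 in Pdgfra-cre. All Pdgfra-cre values were higher and lay close together, and the log2 difference was 0.52 (limma adjusted p = 0.202). The fibril-binding gene Dpt was at 802, 781 and 764 FPKM in floxed and at 942, 1139 and 1020 in Pdgfra-cre, again without overlap (log2 difference 0.40; limma adjusted p = 0.235). Mmp2, which encodes a gelatinase and had the highest mean of the breakdown list over all 6 libraries, was at 956 FPKM in floxed and 763 in Pdgfra-cre as means, with overlapping groups. Named after their values were seen, the proteinase inhibitor gene Timp1 was at 159, 196 and 74.3 FPKM in floxed and 343, 326 and 177 in Pdgfra-cre (log2 difference 1.03; limma adjusted p = 0.312), and the collagen-degrading cathepsin gene Ctsk at 213 to 292 and 179 to 195 (log2 difference -0.41; limma adjusted p = 0.28). Timp1 overlapped between the groups and Ctsk did not.

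The summed markers of several cell types did not overlap between the groups, although no single marker passed the test (lowest limma adjusted p = 0.107). Summed fibroblast markers were 12935 to 13843 FPKM in floxed and 14384 to 16384 in Pdgfra-cre. Dcn alone made up most of this sum (8626 to 9149 and 9697 to 11261), so the separation of the sums largely follows that gene. Of the 9 tested fibroblast markers, 3 were higher and 1 (Pdgfra) lower without overlap, against 8.07% and 8.29% of all genes. Summed markers of PDGFRA-high subepithelial fibroblasts were 732 to 1058 FPKM in floxed and 434 to 588 in Pdgfra-cre (7 of 14 tested genes lower without overlap, against 8.29% of all genes, Bmp7 among them at 26.4 to 31.4 and 9.94 to 15.6). Those of CD34-positive fibroblasts were 4250 to 5188 and 6205 to 10319 (5 of 12 higher without overlap, against 8.07% of all genes, with Cd34 itself at 331 to 356 and 566 to 599). Among the smooth muscle markers named above, Myh11, the smooth muscle myosin, was at 51.7 to 54.4 FPKM in floxed and at 33.0, 6.97 and 30.9 in Pdgfra-cre libraries 13, 23 and 25.

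Mesothelial markers summed to 3.13 to 13.57 FPKM in floxed and 16.3 to 83.6 in Pdgfra-cre. Of these, 2 of 5 tested genes were higher without overlap, against 8.07% of all genes (Msln at 0 to 0.804 and 4.22 to 28.1, and Upk3b). Wt1, Upk1b and Krt19 overlapped, Wt1 at 1.16 to 3.85 and 2.47 to 2.77. Pericyte markers summed to 90.6 to 100.3 and 59.6 to 79.2, with 2 of 7 tested genes lower without overlap, against 8.29% of all genes. These were Kcnj8 (24.4 to 37.8 and 15.8 to 21.5) and Mcam (4.71 to 5.53 and 0.885 to 3.29), while Rgs5 overlapped at 2.89 to 4.89. Leukocyte markers summed to 6.22 to 13.1 and 8.24 to 46.1, and overlapped. Neutrophil markers summed to 88.7 to 108 and 71.2 to 257, also overlapping. Of these, S100a8 was at 0 to 6.84 and 6.90 to 94.7, highest in library 23, and G0s2, which made up most of the sum outside that library, at 86.9 to 93.1 and 50.6 to 77.9. Epithelial markers summed to 6.05 to 21.4 and 9.37 to 36.3, enteric glia markers to 7.10 to 19.1 and 6.01 to 10.2, and those of interstitial cells of Cajal to 15.3 to 21.03 and 15.3 to 19.6. Endothelial markers summed to 30.9 to 37.3 and 33.3 to 44.8, of which Tek alone held 27.1 to 34.8 and 32.3 to 41.5. Of the 11 endothelial markers, 8 stayed below 1 FPKM in all libraries, and Cdh5 was listed at 0 in all. The part of these markers in the collagen values was not tested.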

How the data were processed

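The authors deposited 1 table of gene-level FPKM per library. Per the submitters' processing notes, the build was mm10 and the tools TopHat2 2.1.1, Bowtie2 2.2.8, SAMtools 0.1.18 and Cuffdiff 2.2.1. Per the labels' protocols, full-length cDNA was amplified from total RNA and tagmented. The annotation release, the tool options and the depth are not given in the sources used here. Members and gene lists were chosen with earlier results of these data known.

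With R 4.3.3 and limma 3.58.1, log2(FPKM + 1) of the 11429 genes at 1 FPKM or more in at least 3 libraries was fitted by genotype with a variance trend (two-sided, Benjamini-Hochberg over all genes, threshold 0.05). The fit was tested on simulated data, where it had to recover changes larger than that of any collagen gene here. That check does not show how often it finds changes of the size seen here. Given in full are the most abundant gene of each class and members with an unadjusted p under 0.05 or groups that do not overlap. The labels number the mice, and p-values measure the spread between these. Other pseudocounts, filters, scalings and variance settings and leaving out each library were tried. Gene positions are from GENCODE M21 (GRCm38, the same assembly as mm10).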

Additional observations from a re-analysis of the deposited data

How the results depend on the processing

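No paired analysis was made because the sample labels used here give nothing that would pair floxed with Pdgfra-cre mice. With all 6 libraries, the class medians and counts were compared under the other pseudocounts (0.1 and 5), filters, scalings and variance settings. They stayed within the spread between replicates or within 1.5 times, except under a filter of 5 FPKM, which tests fewer genes. That filter left 3 members with an unadjusted p under 0.05 and 3 whose groups did not overlap. Class shares are taken within a library, so scaling between libraries cannot change them, and the other settings were not applied to them. Leaving out 1 library gave 0 to 33 genes passing in all and 0 to 1 collagen gene (Col18a1, without Pdgfra-cre library 25). It gave 3 to 8 members with an unadjusted p under 0.05 (3 without floxed library 43, 8 without Pdgfra-cre library 25). Those without overlap were 6 to 10 (10 without floxed library 8). The matching shares of all genes were not taken for these fits or for the filter of 5 FPKM. With fewer libraries in a group, non-overlap is easier to reach, so these counts are no result about the collagen genes. Only Col3a1 changed sign among the genes given in full, to -0.062 when quantile-normalized and -0.010 as TPM. The median of all genes tested was -0.008 when quantile-normalized and -0.091 as TPM, against 0.001 in the main fit. The log2 difference of Col3a1 ran from -0.052 to 0.32 without 1 library. The cause was not tested. With 3 mice a group, differences of the size seen in the fibrillar class could not be told from 0.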

Other observations

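Floxed library 9 held the highest value of 9 of the 26 tested collagen genes (34.6%, against 14.9% of all tested genes). These were Col1a1, Col1a2, Col3a1, Col5a1, Col5a2, Col27a1, Col4a1, Col4a2 and Col16a1. The summed FPKM of all collagen genes was 10778 there, against 7592 and 7975 in floxed libraries 8 and 43 and 7442 to 9865 in Pdgfra-cre. In the same library Sparc was at 2884 FPKM (2034 and 2259 in the other floxed libraries) and Lox at 96.8 (66.2 and 57.4). The spread of the main fibrillar collagens among the floxed mice was wider than their difference between the group means.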
